A study of Mus musculus with 30 samples.

Results

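Elastic fibre genes were described in olfactory tissue of mouse embryos profiled on Affymetrix Mouse Exon 1.0 ST arrays, which measure transcripts through probes along their exons. The genes were elastin (Eln), the fibrillins Fbn1 and Fbn2, the fibulins Fbln1, Fbln2 and Fbln5, the cross-linking enzymes Lox and Loxl1, and the microfibril-associated glycoproteins Mfap4 and Mfap5. A gene was read from the transcript cluster that carried its symbol alone in the platform annotation. Of the 10 genes, 8 had such a cluster, 1 each, among 14860 genes read in this way. Fbn1 and Lox were not analysed here.

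Of the 30 arrays, 24 formed a time course of wild-type embryos with 8 groups of 3 arrays. These were the epithelial (EPI) and the adjacent mesenchymal (MES) fraction of the olfactory placode (OPL) at E11.5, of the olfactory epithelium (OE) at E12.5 and E14.5, and of the vomeronasal organ (VNO) at E14.5. The other 6 arrays held 3 Dlx5-null and 3 WT samples at E12.5. Their labels say olfactory placode and name no fraction, and the study describes them as OE and VNO tissue. Dlx5-null embryos had no intact copy of the homeobox gene Dlx5, which was disrupted by gene targeting with a lacZ allele, and WT embryos came from separate crosses of wild-type parents. All embryos had an F1 background from C57Black6 and DBA. Tissue was dissected by hand from vibratome sections, and according to the study some mesenchyme stays on the dissected epithelium. From the mutant the whole epithelial lining of the nasal cavity was taken, because OE and respiratory epithelium could not be told apart. Genotype and dissection therefore differ together. Each array held a pool of at least 4 individuals, and it is not stated whether pools shared litters, so p-values measure the spread between pools.

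Elastic fibres give tissues such as arteries, lung and skin their recoil. Cells secrete elastin as a soluble monomer, fibulin-5 helps to place it on a scaffold of fibrillin microfibrils, and enzymes of the lysyl oxidase family then cross-link it into an insoluble polymer. Mesenchymal cells such as fibroblasts, smooth muscle cells and chondrocytes are the usual producers, and in embryos fibrillin-2 is an early component of the microfibrils.

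The stretches of 250 bases before the annotated starts of Fbln5 and Fbln2 are shown because these genes were called higher at E14.5 in the EPI fraction and had the 2 largest differences between Dlx5-null and WT samples. RefSeq (GRCm38.p6) gives Fbln5 a pair of starts and Fbln2 one, and each sequence runs 5′ to 3′ on the gene's strand. They lie at chr12:101819120-101819369 and chr12:101818485-101818734, both on the minus strand, and at chr6:91212514-91212763 on the plus strand. Capitals mark matches to GGGCGG (the GC box, printed as CCGCCC where it lies on the opposite strand) and to TAATTA, a core bound by many homeodomain proteins, the family of Dlx5.
Fbln5, start 1: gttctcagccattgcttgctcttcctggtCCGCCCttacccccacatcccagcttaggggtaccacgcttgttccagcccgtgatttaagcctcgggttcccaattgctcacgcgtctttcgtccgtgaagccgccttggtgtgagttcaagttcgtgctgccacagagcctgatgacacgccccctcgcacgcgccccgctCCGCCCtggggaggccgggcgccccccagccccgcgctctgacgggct
Fbln5, start 2: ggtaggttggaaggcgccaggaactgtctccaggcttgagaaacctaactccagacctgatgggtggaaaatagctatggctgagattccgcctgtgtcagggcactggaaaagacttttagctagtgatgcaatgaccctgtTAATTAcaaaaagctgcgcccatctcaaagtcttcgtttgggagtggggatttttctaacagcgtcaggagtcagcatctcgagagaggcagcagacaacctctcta
Fbln2: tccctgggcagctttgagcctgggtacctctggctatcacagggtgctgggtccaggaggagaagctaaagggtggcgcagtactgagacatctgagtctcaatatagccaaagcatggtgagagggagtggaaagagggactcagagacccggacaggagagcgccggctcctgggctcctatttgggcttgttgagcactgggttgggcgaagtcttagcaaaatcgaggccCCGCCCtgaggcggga

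Both strands were searched for the TATA box as TATAAA, for the GC box, for an E-box as CACCTG, for the AP-1 site as TGAGTCA, and for TAATTA. None of these 5 motifs overlapped another in the sequences shown. The first start of Fbln5 held GGGCGG at 2 positions and Fbln2 held it at 1, against 32.7% of all 32851 promoter stretches of this length with at least 1 match. The second start of Fbln5 held TAATTA, 102 to 107 bases before the start, and 4.84% of all stretches held it. In all, 6 stretches of 4 listed genes were searched, those of Fbn1 and Fbln1 included, and no other held TAATTA. Fbn1 and the second start of Fbln1 also held GGGCGG. The GC content was 65.2% and 49.6% before the first and the second start of Fbln5, and 58.8% before Fbln2. These matches describe the letters only.

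Values are on the log2 scale of the authors' robust multi-array average (RMA), in which a step of 1 is a doubling, and levels of different genes were not compared, since their probes differ. The array medians lay between 6.41 and 6.44 in EPI at E11.5, 6.96 and 7.06 in EPI at E12.5, 6.55 and 6.61 in EPI OE at E14.5, 6.72 and 6.76 in EPI VNO at E14.5, and 7.01 and 7.17 in all MES arrays, so a common scale is not established. The median difference of all genes is therefore given for each comparison, and calls were repeated after quantile normalization of the arrays compared. Of 6 epithelial markers, 4 were called higher in EPI than in MES at E11.5 and 4 at E12.5, but 1 in the OE at E14.5, so the fraction labels were borne out less at E14.5. The mean level of these markers lay between 9.28 and 9.52 on EPI arrays and between 7.96 and 8.05 on MES arrays at E11.5, but between 9.69 and 9.82 on EPI arrays and between 9.45 and 9.66 on MES arrays of the VNO at E14.5. In the VNO at E14.5, 4 of 4 skeletal muscle genes and 3 of 3 bone genes were called higher in EPI than in MES, and of the epithelial markers none was called higher and 1 lower. The 7 mesenchymal markers averaged between 9.43 and 9.91 in EPI at E11.5, 10.11 and 10.65 at E12.5, 10.46 and 10.99 in the OE at E14.5 and 11.05 and 11.09 in the VNO at E14.5, against 11.10 to 11.34 over all MES arrays. In such bulk samples fewer cells of a type and less RNA per cell cannot be told apart.

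Eln, which encodes the elastic core of the fibre, had the largest change between E11.5 and E14.5 of the 8 genes in both fractions. In EPI its level was 5.999, 6.35 and 5.89 at E11.5, 7.51, 7.15 and 7.67 at E12.5, 10.19, 9.65 and 9.68 in the OE at E14.5, and 10.10, 9.97 and 10.28 in the VNO at E14.5. In MES it was 7.40, 7.33 and 7.28 at E11.5, 8.23, 8.26 and 8.34 at E12.5, 9.91, 10.09 and 10.08 in the OE at E14.5, and 10.41, 10.30 and 10.14 in the VNO at E14.5. Within each fraction no array of a later age overlapped with an earlier one, whereas at E14.5 the arrays of EPI OE overlapped with those of EPI VNO and of MES OE.

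Between E11.5 and E14.5 Eln rose by 3.76 (SE 0.21, adjusted p = 0.00047) in EPI OE and by 4.04 (SE 0.15, adjusted p = 3.7e-05) in EPI VNO, in limma's test with Benjamini-Hochberg adjustment over all clusters. In MES the rises were 2.69 (SE 0.07, adjusted p = 3.4e-05) in the OE and 2.95 (SE 0.09, adjusted p = 6.8e-05) in the VNO. As folds these are 13.6 and 16.5 in EPI, and 6.45 and 7.72 in MES. Most of the rise came in the longer interval, between E12.5 and E14.5. There Eln gained 2.40 in EPI OE (SE 0.21) and 1.75 in MES OE (SE 0.07). Between E11.5 and E12.5 it gained 1.37 (SE 0.18) and 0.94 (SE 0.06), and rates per day were not compared. These 4 steps were called, which took an adjusted p no higher than 0.05 together with a log2 change no smaller than 0.9. After quantile normalization the 2 early steps, 0.79 in EPI and 0.88 in MES, fell short of the minimum change. Without that normalization the medians of all genes were 0.54 in EPI and 0.03 in MES over the early step. Over the late step they were -0.19 and -0.15.

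**Figure D1:**
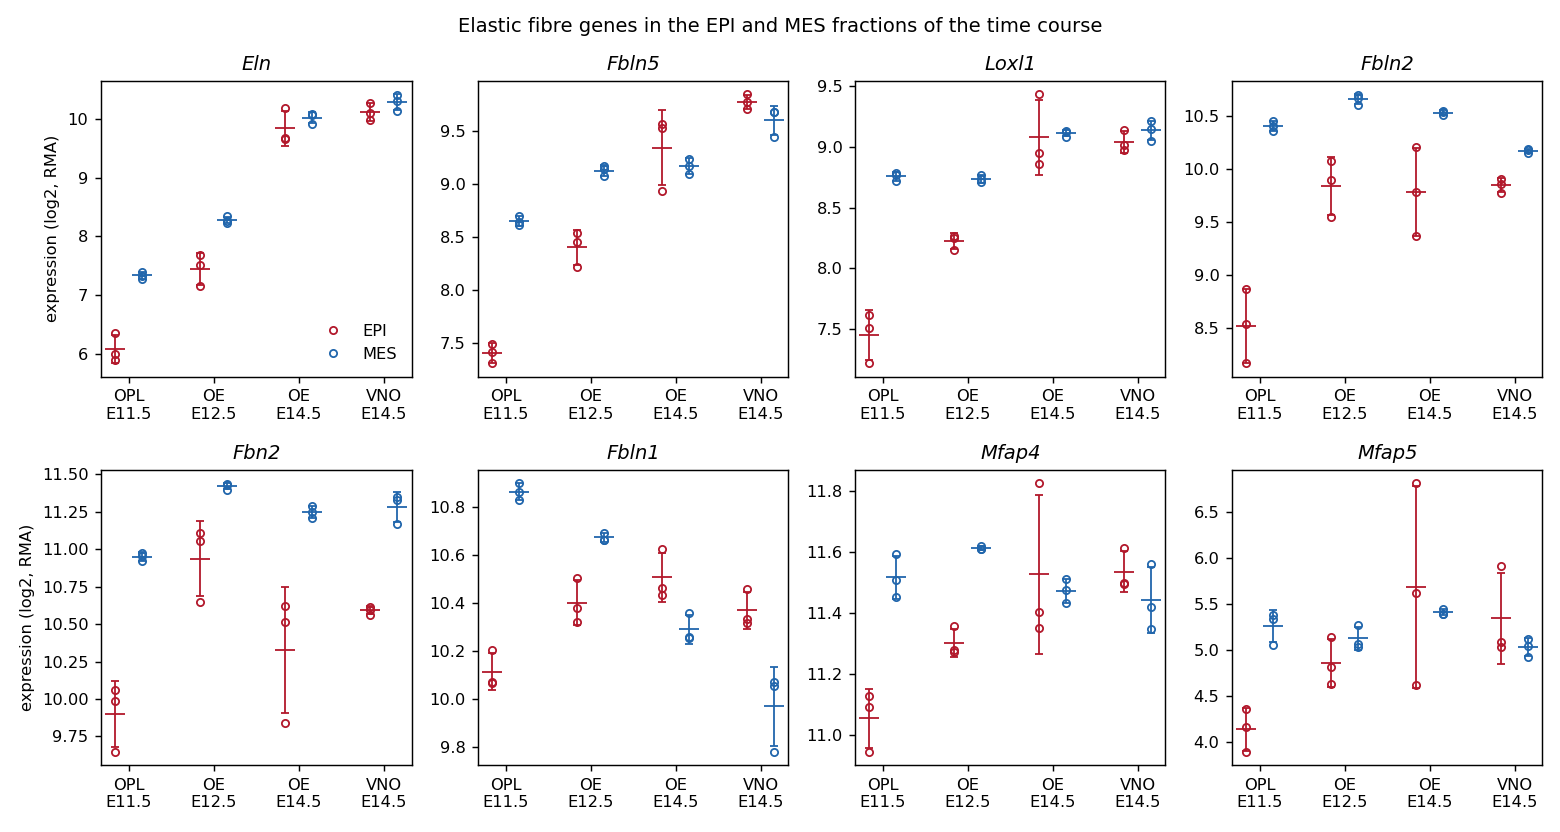
Level of each of the 8 genes (log2 RMA values, one y axis per gene) in the EPI (red) and MES (blue) fractions at OPL E11.5, OE E12.5, OE E14.5 and VNO E14.5. Open circles are arrays, horizontal marks means and bars SD (n = 3). Eln reached 9.84 and 10.12 in the EPI groups of E14.5, against 6.08 in EPI at E11.5, and Fbln1 reached 9.97 in MES VNO at E14.5, against 10.86 in MES at E11.5.

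Fbln5 and Loxl1 moved with Eln in EPI. Fbln5 binds elastin and microfibrils and guides fibre assembly. Its EPI arrays read 7.50, 7.42 and 7.31 at E11.5, 8.45, 8.21 and 8.54 at E12.5, 9.56, 8.93 and 9.52 in the OE at E14.5 and 9.84, 9.71 and 9.77 in the VNO at E14.5. All 4 groups were separate, with the VNO highest. In MES the values were 8.70, 8.64 and 8.61 at E11.5, 9.17, 9.14 and 9.07 at E12.5, 9.16, 9.24 and 9.09 in the OE at E14.5 and 9.68, 9.44 and 9.67 in the VNO at E14.5. The MES OE groups of E12.5 and E14.5 overlapped. The rise since E11.5 was 1.93 (SE 0.20, adjusted p = 0.0017) in EPI OE and 2.36 (SE 0.09, adjusted p = 4.1e-05) in EPI VNO. In MES it passed in the VNO, at 0.95 (SE 0.09, adjusted p = 0.0011), and was 0.52 (SE 0.06) in the OE, below the minimum.

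Loxl1, a lysyl oxidase that fibulin-5 brings to elastin, read 7.22, 7.62 and 7.51 in EPI at E11.5, 8.27, 8.15 and 8.25 at E12.5, 9.43, 8.95 and 8.86 in the OE at E14.5 and 9.14, 9.01 and 8.97 in the VNO at E14.5. In MES all 12 arrays lay between 8.71 and 9.21. The EPI groups were separate up to E14.5, where OE and VNO overlapped with each other and with MES. Loxl1 rose by 1.63 (SE 0.20, adjusted p = 0.0026) in EPI OE and by 1.59 (SE 0.13, adjusted p = 0.00028) in EPI VNO since E11.5, and differed by 0.35 (SE 0.05) and 0.38 (SE 0.08) in MES, below the minimum.

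Fbln2 and Fbn2 had most of their EPI change before E12.5. Fbln2, a fibulin that binds fibrillin and tropoelastin, read 8.54, 8.87 and 8.17 in EPI at E11.5, 9.89, 9.55 and 10.08 at E12.5, 10.20, 9.37 and 9.78 in the OE at E14.5 and 9.86, 9.77 and 9.90 in the VNO at E14.5. The 9 later EPI arrays were all above the 3 of E11.5 and overlapped among themselves. The change was 1.31 (SE 0.22, adjusted p = 0.0035) between E11.5 and E12.5 and -0.05 (SE 0.25) between E12.5 and E14.5 in the OE, a small difference that turned positive, 0.09, after quantile normalization. In MES the group means of Fbln2 were 10.40, 10.65, 10.53 and 10.17, and no change passed.

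Fbn2, a fibrillin of embryonic microfibrils, read 9.98, 10.06 and 9.65 in EPI at E11.5, 11.06, 10.65 and 11.11 at E12.5, 10.62, 9.84 and 10.52 in the OE at E14.5 and 10.56, 10.62 and 10.60 in the VNO at E14.5. It was thus highest at E12.5, and array 2 of EPI OE at E14.5 reached into the range of E11.5. It rose by 1.04 (SE 0.17, adjusted p = 0.0036) by E12.5, whereas the difference of -0.61 (SE 0.25, adjusted p = 0.092) between E14.5 and E12.5 in the OE did not pass. In MES the group means were 10.95, 11.42, 11.25 and 11.28, and the arrays of E12.5 lay above all others. With quantile normalization this order was lost, since Fbn2 differed by 0.05 between MES OE at E14.5 and E12.5, against -0.17 on the deposited scale.

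Fbln1, a fibulin of basement membranes and elastic fibres, was the only one of the 8 whose estimates ran in opposite directions in the 2 fractions at both sites of E14.5 and under both scalings. In MES it read 10.86, 10.90 and 10.83 at E11.5, 10.66, 10.69 and 10.66 at E12.5, 10.26, 10.36 and 10.26 in the OE at E14.5 and 10.07, 9.78 and 10.06 in the VNO at E14.5. Each MES group lay below the one of the age before. In EPI all 12 arrays lay between 10.07 and 10.62. The MES difference since E11.5 was -0.57 (SE 0.06, adjusted p = 0.0009) in the OE and -0.89 (SE 0.10, adjusted p = 0.0016) in the VNO, both short of the minimum change of 0.9. The VNO value passed without MES VNO array 1 or 3 or MES OPL array 3, at -0.94, -0.93 and -0.91. After quantile normalization they were -0.29 and -0.58. In EPI the differences were 0.39 (adjusted p = 0.047) and 0.25 (adjusted p = 0.052), also short of the minimum. After quantile normalization the EPI values were 0.29 in the OE and 0.02 in the VNO (limma, adjusted p = 0.875). A rise in EPI VNO opposite to MES was thus not shown.

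Mfap4 and Mfap5 bind fibrillin microfibrils. Mfap4 read 10.94, 11.13 and 11.09 in EPI at E11.5, and lay between 11.27 and 11.83 on the 9 later EPI arrays and between 11.35 and 11.62 on the 12 MES arrays. No change of Mfap4 passed. Whether the probes of Mfap5 stood above background could not be read from the values. Its EPI arrays read 3.90, 4.36 and 4.16 at E11.5, 4.64, 5.14 and 4.81 at E12.5, 5.62, 6.82 and 4.62 in the OE at E14.5 and 5.92, 5.09 and 5.03 in the VNO at E14.5. The OE arrays of E14.5 covered the range of every other group except EPI at E11.5 (SD 1.10). The rise of 1.21 in EPI VNO since E11.5 passed (SE 0.27, adjusted p = 0.0093), and the difference of 1.55 in EPI OE did not (SE 0.52, adjusted p = 0.057). Without OE array 3 of E14.5, the lowest, the OE difference was 2.08 and passed (adjusted p = 0.013).

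Counted over the 8 genes, 4 rose in EPI between E11.5 and E12.5 (Eln, Fbn2, Fbln2 and Fbln5), where 17.6% of all 14804 genes with time-course values were called higher. With quantile normalization only Fbln2 did, against 1.4% of all genes, and Rank Products, the test of the study's methods, called none. Eln and Fbln5 rose in EPI OE between E12.5 and E14.5 (3.17% of all genes), joined by Loxl1 with quantile normalization (10.2%). Fbln5 was not called there without array 1 or 3 of E14.5 or array 2 of E12.5, with changes of 0.82, 0.85 and 0.84. Between E11.5 and E14.5, 4 rose in EPI OE (Eln, Fbln2, Fbln5 and Loxl1; 14% of all genes) and 5 in EPI VNO (Eln, Fbln2, Fbln5, Loxl1 and Mfap5; 20.5%), 2 comparisons that share the arrays of E11.5. These 4 and 5 were also the ones called after quantile normalization, with 10.7% and 11.1% of all genes, whereas Rank Products called 2 in EPI OE and 2 in EPI VNO. Eln alone was called in MES between E11.5 and E12.5 (1.44%), between E12.5 and E14.5 in the OE (2.52%) and between E11.5 and E14.5 in the OE (5.06%), and Eln and Fbln5 in MES VNO since E11.5 (6.35%), where Rank Products called 1. None was called lower in MES, where 2.49% of all genes in the OE and 3.38% in the VNO were.

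The median difference over the 8 genes since E11.5 was 1.40 in EPI OE and 1.26 in EPI VNO, and 0.23 in MES OE and 0.13 in MES VNO, while the medians of all genes were 0.32, 0.45, -0.10 and -0.07 in the same order. With quantile normalization the 8 genes had medians of 1.28, 1.02, 0.48 and 0.41, and all genes 0.26, 0.19, 0.01 and 0.02. Between VNO and OE at E14.5 none was called in EPI (0.236% of all genes higher), where none had an unadjusted p under 0.05, nor in MES (0.682% higher), where 5 had. Rank Products called none in either. The medians of all genes between VNO and OE were 0.14 in EPI and 0.009 in MES, and the share of all genes with such an unadjusted p was not counted.

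**Figure D2:**
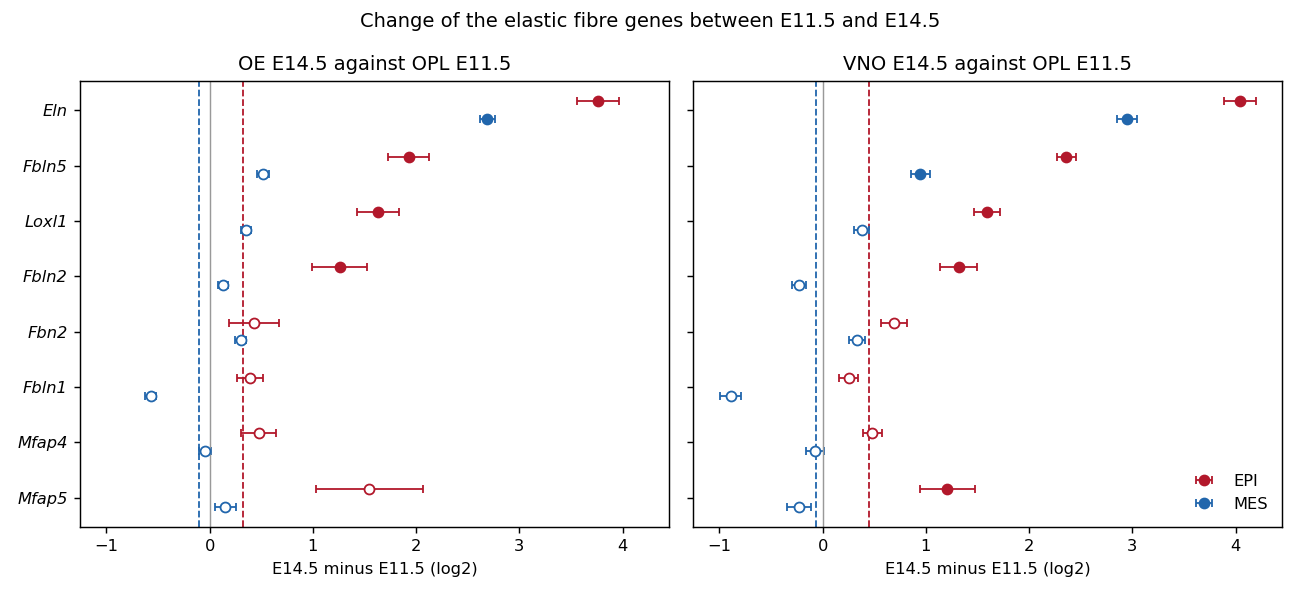
Log2 change since OPL E11.5 of each gene in the OE (left) and the VNO (right) at E14.5, in EPI (red) and MES (blue). Points are estimates from 6 arrays with SE, filled where called, and dashed lines mark the median change of all genes in each fraction. Eln stands apart in both fractions, at 3.76 and 2.69 in the OE, while Fbln5, Loxl1 and Fbln2 are filled for EPI in both panels and for MES only at Fbln5 in the VNO.

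Over the same interval the markers of other cell types also moved in EPI. Called higher since E11.5 were 5 of 5 cartilage genes in EPI OE (median difference 4.15), 3 of 3 bone genes (2.99), 4 of 4 skeletal muscle genes (1.77), 4 of 6 smooth muscle and pericyte genes (2.00) and 3 of 7 mesenchymal markers (0.84). In EPI VNO the counts were 5, 3, 4, 5 and 4. In MES OE they were 3, 3, 2, 3 and 1, with 1 mesenchymal marker called lower. Of macrophage genes 2 of 5 were called higher in EPI OE and 5 of 5 in EPI VNO, of endothelial genes 2 of 5 and 3 of 5, and of neuronal genes 3 of 4 and 2 of 4. With quantile normalization the macrophage counts were 2 and 2 and the endothelial counts 1 and 3. Of all genes 14% were called higher in EPI OE, 20.5% in EPI VNO, 5.06% in MES OE and 6.35% in MES VNO. With quantile normalization the EPI shares were 10.7% and 11.1%. In MES the epithelial markers moved too, with 6 of 6 called higher in the OE (median 1.07) and 6 of 6 in the VNO (median 1.52), as did 3 of 4 neuronal genes at each site. The part of these cells in the changes of the elastic fibre genes was not tested. When 0.15 of the mean MES level was subtracted from each EPI array on the linear scale, the fraction that the study's methods use, the EPI changes of Eln were 4.14 in the OE and 4.43 in the VNO, and the same 4 and 5 genes were called. The change of Fbln2 was larger after the subtraction, at 2.06 in the OE and 2.26 in the VNO, and 3.03 and 3.29 at a fraction of 0.2. On the linear scale its EPI level was 27.2% of the MES level at E11.5, against 59.7% in the OE and 79.8% in the VNO at E14.5. The subtraction thus takes a larger part of the E11.5 level, which by arithmetic alone enlarges the change. Between E11.5 and E12.5 the subtraction added Loxl1 (1.10) and Mfap5 (1.01) to the calls, and between E12.5 and E14.5 in the OE it added Loxl1 (0.96).

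At E11.5 all 8 genes were lower on every EPI array than on any MES array, and at E14.5 this held only for Fbn2 and Fbln2, in both the OE and the VNO. The same was true of 80.7% of all genes at E11.5, and at E14.5 of 41.6% in the OE and 38.1% in the VNO. The called differences were -1.88 for Fbln2 (SE 0.18, adjusted p = 0.0004), -1.31 for Loxl1 (SE 0.12), -1.26 for Eln (SE 0.13), -1.24 for Fbln5 (SE 0.08), -1.12 for Mfap5 (SE 0.15) and -1.05 for Fbn2 (SE 0.12). These are 6 of 8 genes, where 25.6% of all genes were called lower. The median was -1.18 for the 8 genes, against -0.65 for all genes. With quantile normalization these were -0.59 and 0.00, all 8 estimates stayed below 0, and Fbln2 alone was called, at -1.35 (adjusted p = 0.0065), among 1.28% of all genes. Rank Products called none of the 8.

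At E12.5 none of the 8 passed the minimum change (3.5% of all genes were called lower in EPI), although 7 had an unadjusted p under 0.05, and Rank Products called none. No array overlapped for 7 of them, all lower in EPI, as for 50% of all genes, and the largest differences were -0.83 for Eln (SE 0.14) and -0.81 for Fbln2 (SE 0.14). Without EPI array 3 these became -0.95 and -0.93 and passed. In the OE at E14.5 only Fbn2 was called, at -0.92 (SE 0.22, adjusted p = 0.02), with 6.44% of all genes lower, and it fell short with quantile normalization (-0.87), in Rank Products, without EPI array 2 (-0.68) and without any 1 of the 3 MES arrays (adjusted p between 0.058 and 0.067). In the VNO at E14.5 none was called either way (2.74% of all genes higher, 5.25% lower), 3 had an unadjusted p under 0.05, and Fbn2 was the lowest at -0.69 (SE 0.09). With quantile normalization Mfap5 alone was called there, 0.92 higher in EPI, among 6.69% of all genes. Fbln2 was at -0.74 in the OE and -0.33 in the VNO, and the other 6 genes lay between -0.18 and 0.40 at both sites. Among these, Fbln1 was higher on every EPI array than on any MES array, by 0.22 in the OE and 0.40 in the VNO. So was Fbln5 in the VNO, by 0.18. The same was true of 12.7% of all genes in the OE and 24.9% in the VNO. The medians of all genes were -0.20 at E12.5, and -0.20 in the OE and -0.11 in the VNO at E14.5. For these comparisons the share of all genes with an unadjusted p under 0.05 was not counted.

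**Figure D3:**
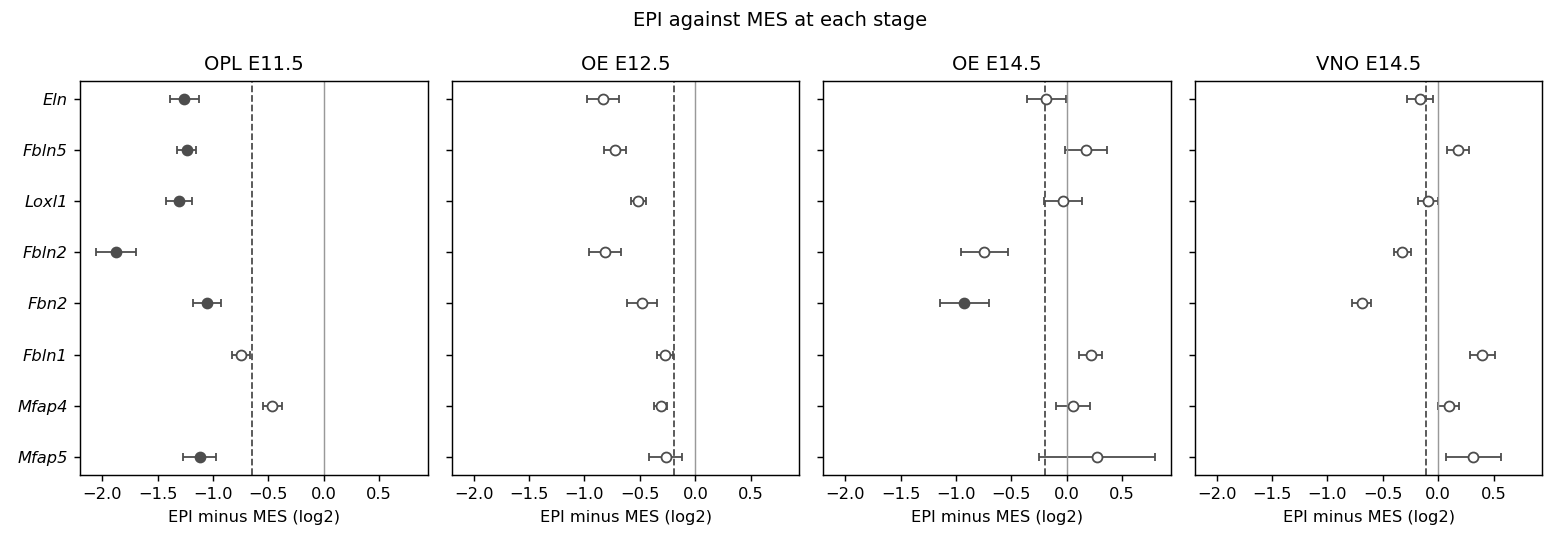
Log2 difference of EPI minus MES for each gene at the 4 stages. Points are estimates from 6 arrays with SE, filled where called, dashed lines mark the median of all genes and solid lines 0. All 8 points lie below 0 at E11.5, where the median of all genes is -0.65, and Fbn2 and Fbln2 remain the lowest at both sites of E14.5.

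Whether EPI and MES changed unequally was tested directly, as the change since E11.5 in EPI minus that in MES over 12 arrays. The tests of all stages share the arrays of E11.5. By E12.5 only Fbln2 passed, at 1.06 (SE 0.24, adjusted p = 0.0047), with 15.2% of all genes called higher, and it was 0.88 without EPI array 3 of E11.5. By E14.5 in the OE, 5 genes passed, Fbln5 (1.41, SE 0.21), Loxl1 (1.28, SE 0.21), Fbln2 (1.13, SE 0.29), Eln (1.07, SE 0.23) and Fbln1 (0.96, SE 0.12), with 14.4% of all genes. Without EPI array 1 of E14.5 the value of Eln was just under the minimum. In the VNO, 6 passed, Fbln2 (1.55, SE 0.20), Mfap5 (1.44, SE 0.31), Fbln5 (1.41, SE 0.12), Loxl1 (1.21, SE 0.15), Fbln1 (1.15, SE 0.13) and Eln (1.09, SE 0.18), with 24.6% of all genes. All these were positive, the medians of the 8 genes being 1.10 and 1.18, against 0.43 and 0.54 for all genes. With quantile normalization the estimates were smaller, Fbln5 alone passed in the OE (0.92, 5.7% of all genes), and Fbln2 (0.92) and Mfap5 (1.21) passed in the VNO (7.81%). Fbn2 did not pass at any stage, and its estimates at E14.5 changed sign with quantile normalization (0.13 and -0.26 in the OE, 0.36 and -0.21 in the VNO).

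**Figure D4:**
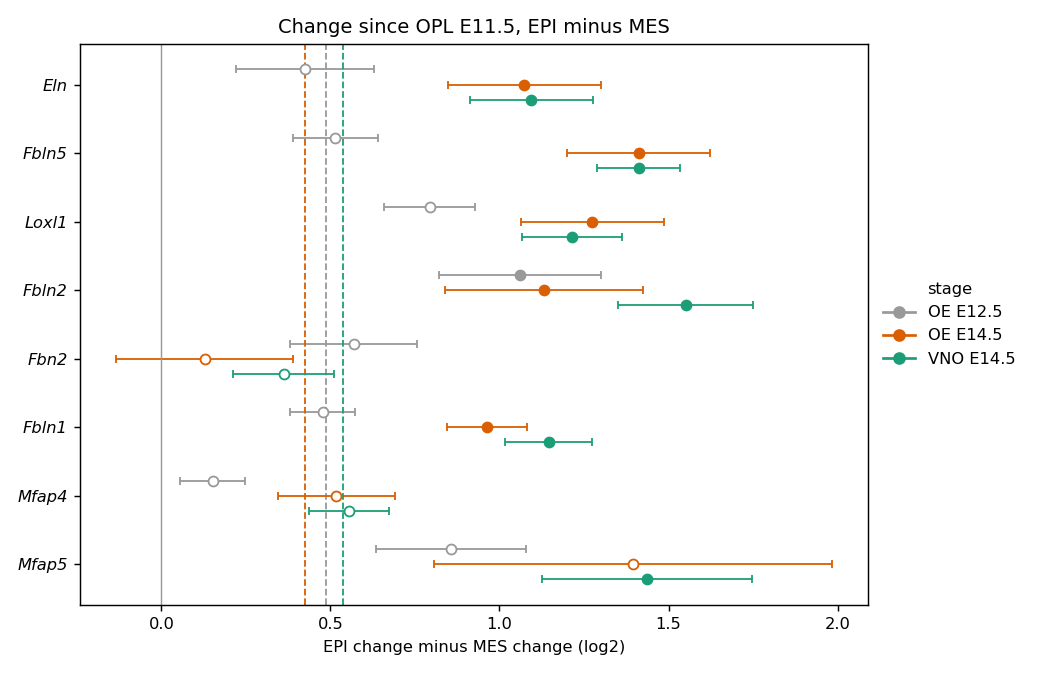
Change since OPL E11.5 in EPI minus the change in MES, on the log2 scale, at OE E12.5 (grey), OE E14.5 (orange) and VNO E14.5 (green). Points are estimates from 12 arrays with SE, filled where called, and dashed lines mark the medians of all genes. The filled points of E14.5 lie between 0.96 and 1.55, and Fbn2 lies at 0.13 and 0.36.

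Other genes of elastic fibres were counted from 4 lists. Of 19 measured microfibril and fibre partners, 11 rose in EPI OE between E11.5 and E14.5, with a median of 1.06, and 5 rose and 2 fell in MES OE, with a median of 0.56. The shares of all genes called higher in these comparisons were 14% and 5.06%, and 2.49% were called lower in MES OE. The largest rises in EPI OE were those of decorin (Dcn, a small proteoglycan of collagen fibrils) at 5.14 and Thsd4, an ADAMTS-like protein of fibrillin microfibrils, at 2.50. In MES OE they were 4.32 and 1.51. Emilin2, of the family of elastin microfibril interface proteins, fell by 1.40 there, and Tgfbi, a matrix protein induced by TGF-beta, fell by 1.76. Of 11 genes of cross-linking and assembly, 4 rose in EPI OE and 1 in MES OE. Periostin (Postn), a matricellular protein, was called in both, at 3.30 and 2.92.

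Of 9 genes of elastin breakdown, 6 rose in EPI OE and 2 in MES OE. Mmp9, a gelatinase that also cleaves elastin, rose by 2.68 and 2.94, and Ctsk, the cathepsin of osteoclasts, by 2.20 and 1.03. Of 12 genes of TGF-beta ligands, receptors and latency, 3 rose in EPI OE, Tgfb1 (1.25), Tgfb3 (1.47) and Tgfbr2 (1.69), and none passed in MES OE. With quantile normalization the TGF-beta counts were 3 in EPI OE and 2 in MES OE. Those of the partners were then 10 and 7, of cross-linking 4 and 1, and of elastin breakdown 6 and 3. The shares of all genes were 10.7% in EPI OE and 5.84% in MES OE. The median of the 12 genes in EPI OE was -0.14, against 0.32 for all genes, of which 14% were called higher. Emilin2, the MES value of Ctsk and the TGF-beta genes were picked for naming after their values were seen. In EPI VNO the counts were 11 of 19, 5 of 11, 8 of 9 and 3 of 12, where 20.5% of all genes were called higher, so that the TGF-beta count was near the share of all genes. At E11.5, 11 of 19 partners and 6 of 11 genes of cross-linking were called lower in EPI than in MES, as were 25.6% of all genes. With quantile normalization 1 and 0 were, against 1.28% of all genes.

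Over the 24 time-course arrays the level of Eln ran closest to that of Fbln5 (r = 0.92) and Loxl1 (r = 0.89) among the 8 genes, within EPI (0.98 and 0.97 over 12 arrays) as within MES (0.86 and 0.93). Eln and Fbln1 had r = 0.72 within EPI and -0.94 within MES. Fbn2 and Fbln2 had r = 0.90 over the 24 arrays, but 0.85 within EPI and 0.31 within MES. These values describe arrays that share group means and scale. Among all other genes, the 3 closest to Eln were Sfrp2 (0.98), Itm2b (0.98) and Fcgrt (0.98). Closest to Fbln5 was Fam114a1 (0.98), to Loxl1 Col8a2 (0.97), to Fbln2 Scarf2 (0.99), to Fbn2 Boc (0.97), to Fbln1 Usp22 (0.94), to Mfap4 Mettl21a (0.93) and to Mfap5 Rasgrf2 (0.90).

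The last comparison asked whether loss of Dlx5 changed these genes at E12.5. Dlx5 itself read 10.24, 10.30 and 10.17 in Dlx5-null samples and 10.94, 11.03 and 10.99 in WT samples, a difference of -0.75 (SE 0.09, adjusted p = 0.12) with no overlap. Fbln2 was 11.51, 10.96 and 10.72 in Dlx5-null samples and 10.37, 10.18 and 10.31 in WT samples. Every mutant value lay above every WT value, and the difference of 0.78 (SE 0.20, adjusted p = 0.25) did not pass. Fbln5 was 10.52, 10.28 and 10.31 in Dlx5-null samples and 9.98, 9.999 and 9.93 in WT samples, 0.40 higher (SE 0.10, adjusted p = 0.24), again without overlap. Fbn2 was 11.72, 11.53 and 11.37 in Dlx5-null samples and 11.18, 11.08 and 11.25 in WT samples, 0.37 higher (SE 0.12, adjusted p = 0.29).

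None of the 8 genes was called in limma's test, as for 0% of all genes in that direction, nor in Rank Products, and 4 had an unadjusted p under 0.05. The share of all genes with such a p was not counted. All mutant values lay above all WT values for 6 of the 8, Eln, Fbn2, Fbln1, Fbln2, Fbln5 and Mfap4, against 9.8% of all genes. With 3 samples a group an exact two-sided permutation test cannot go below p = 0.1. Eln differed by 0.29 (SE 0.13), Mfap4 by 0.23 (SE 0.09) and Fbln1 by 0.11 (SE 0.09). Loxl1 (-0.08, SE 0.09) and Mfap5 (-0.07, SE 0.13) overlapped. The median was 0.26 over the 8 genes and -0.01 over all genes, or 0.31 and 0.03 with quantile normalization. Of the 4 lists of other elastic fibre genes none was called. The 7 mesenchymal markers averaged 11.02 to 11.47 in Dlx5-null samples and 10.66 to 10.78 in WT samples, and the 6 epithelial markers 10.68 to 11.52 in Dlx5-null samples and 11.54 to 11.60 in WT samples. Neuronal genes averaged 9.89 to 10.48 in Dlx5-null samples and 10.64 to 10.97 in WT samples, and smooth muscle and pericyte genes 7.76 to 7.83 in Dlx5-null samples and 7.99 to 8.12 in WT samples. The smooth muscle and pericyte genes did not move together, with a median difference of -0.03 and none called. Rgs5 (mean 8.20 against 9.38 in WT) and Acta2 (8.34 against 9.10) were lower, Cspg4 (8.61 against 8.19) and Cnn1 (7.03 against 6.90) higher, and Tagln and Myh11 nearly level. The effects of genotype, of the different dissection and of these cell types on the elastic fibre genes cannot be told apart.

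**Figure D5:**
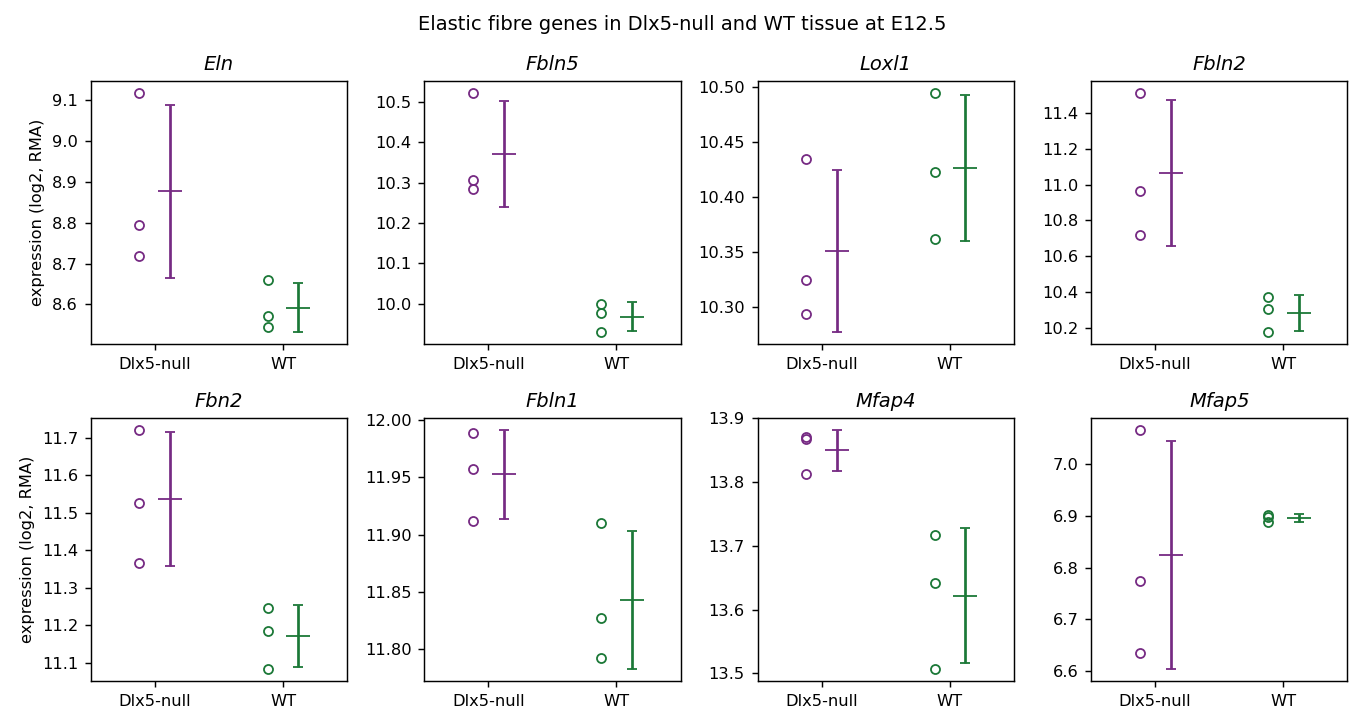
Level of each gene (log2 RMA values, one y axis per gene, not starting at 0) in Dlx5-null (purple) and WT (green) samples at E12.5. Open circles are arrays, and horizontal marks with bars are means with SD (n = 3). For Fbln2 the Dlx5-null arrays read 10.72 to 11.51 and the WT arrays 10.18 to 10.37, and Loxl1 and Mfap5 overlap.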

How the data were processed

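The authors depleted RNA of 30 pools of ribosomal RNA, hybridized it to exon arrays and computed RMA values, deposited as log2 values of 23339 transcript clusters (mm9 and RMA are named in the submitters' notes, without a version). The methods state RMA on the 6 arrays of each comparison. The time-course and the Dlx5 values appear to come from separate normalizations, with 23238 and 23332 clusters filled, and were compared only within themselves. Of the clusters, 14996 carried 1 gene symbol, 1019 several and 7324 none, and a gene was read from its brightest single-symbol cluster. The 15 group pairs and 3 interactions were fitted on the deposited log2 values by limma (version 3.58.1, R 4.3.3; functions lmFit and eBayes), two-sided, with Benjamini-Hochberg adjustment over all clusters of the arrays compared, and a call took an adjusted p no higher than 0.05 together with a log2 change no smaller than 0.9. The fits were tested on simulated data. Alternatives were Rank Products (100 permutations), quantile normalization, median centring, other filters and priors, subtraction of MES levels at fractions of 0.1, 0.15 and 0.2, a replicate block, 1 fit over 24 arrays and leaving out each array. All 10 listed genes are named, with up to 5 called genes of largest change per comparison from the other lists and up to 3 genes of like pattern. The members and lists were chosen with earlier results of these data known. With 3 arrays a group the number of arrays limits the precision. Correlations of deviations between arrays of the same replicate number lay between -0.177 and 0.27, and in no comparison was every pair over 0.1, so the numbers were not taken as pairs. Promoters were matched by symbol to a RefSeq table, in which Fbn2 and Lox were not looked up and 4 of the other listed genes were found.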

Additional observations from a re-analysis of the deposited data

Results flagged for a closer look

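The change since E11.5 differed between EPI and MES, by the test of that difference itself, for 12 of the 24 combinations of gene and stage tested (8 genes at 3 stages). All 3 stages were set against the same arrays of E11.5, so these combinations are not independent. At OE E12.5 it was larger in EPI by 1.06 for Fbln2. At OE E14.5 it was larger in EPI by 1.07 for Eln, 0.96 for Fbln1, 1.13 for Fbln2, 1.41 for Fbln5 and 1.28 for Loxl1. At VNO E14.5 it was larger in EPI by 1.09 for Eln, 1.15 for Fbln1, 1.55 for Fbln2, 1.41 for Fbln5, 1.21 for Loxl1 and 1.44 for Mfap5. Over the same arrays the median of all genes was 0.49, 0.43 and 0.54, and 15.2%, 14.4% and 24.6% of all genes were called higher. The 1 of 8 genes called at OE E12.5 is thus no larger a share than that of all genes. With quantile normalization 3 of the 12 still passed, Fbln5 at OE E14.5 and Fbln2 and Mfap5 at VNO E14.5. All groups held 3 arrays, so no array was tested as standing apart from its group.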

How the results depend on the processing

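No member changed direction past a threshold under any alternative run. The numbers of elastic fibre genes called moved by more than 1.5 times as follows. Rank Products called 0 instead of 4 in EPI OE E12.5 against E11.5, 1 instead of 2 in EPI OE E14.5 against E12.5, 2 instead of 4 in EPI OE and 2 instead of 5 in EPI VNO E14.5 against E11.5, 0 instead of 1 in MES OE E12.5, 1 instead of 2 in MES VNO E14.5 against E11.5, and for EPI against MES 0 instead of 6 at E11.5 and 0 instead of 1 in the OE at E14.5. Quantile normalization and median centring gave 1 and 0 instead of 4 in EPI OE E12.5, 0 and 0 instead of 1 in MES OE E12.5, 1 and 1 instead of 6 for EPI against MES at E11.5, 0 and 0 instead of 1 in the OE at E14.5, and 0 and 0 instead of 1 for the difference of changes at E12.5. Quantile normalization alone gave 1 instead of 0 for EPI against MES in the VNO, and 1 instead of 5 and 2 instead of 6 for the difference of changes in the OE and VNO at E14.5. Smaller moves came from subtraction of MES levels at fractions of 0.1, 0.15 and 0.2, which gave 5, 6 and 6 instead of 4 in EPI OE E12.5, 3 each time instead of 2 in EPI OE E14.5 against E12.5 and 6 instead of 5 at 0.2 in EPI VNO, and from quantile normalization, with 3 instead of 2 in EPI OE E14.5 against E12.5. With no minimum fold change the counts were 7 in EPI OE E12.5, 4 in MES OE E12.5, 5 in MES OE E14.5 against E12.5 and 5 against E11.5, 6 in MES VNO against E11.5, 1 between MES VNO and OE, 7, 2 and 3 for EPI against MES at OE E12.5, OE E14.5 and VNO E14.5, and 6 for the difference of changes at E12.5. The shares of all genes called without that minimum were not counted, so these counts may reflect general shifts between arrays. Median centring, quantile normalization and Rank Products put 16, 19 and 19 single calls below a threshold, and leaving out an array 9 of 1008 values; the cause of these moves was not tested. With each array left out in turn the counts ran from 1 to 3 in EPI OE E14.5 against E12.5 (1 without EPI OE E14.5 array 1 or EPI OE E12.5 array 2, which lose Fbln5 at 0.82 and 0.84; 3 without EPI OE E14.5 array 2, which adds Loxl1, or array 3, which adds Loxl1 and Mfap5 and loses Fbln5), from 4 to 5 in EPI OE E14.5 against E11.5, from 2 to 3 in MES VNO E14.5 against E11.5 (Fbln1 at -0.94, -0.93 or -0.91), from 0 to 2 for EPI against MES at E12.5 (2 without EPI array 3) and in the OE at E14.5 (0 without EPI array 2 or any MES array, 2 without EPI array 1), from 0 to 2 for the difference of changes at E12.5 (0 without EPI OPL array 3, where Fbln2 is 0.88; 2, with Mfap5, without EPI OE array 1, EPI OPL array 2, MES OE array 2 or MES OPL array 1) and from 4 to 6 at OE E14.5, and stayed as reported elsewhere. The fit with the replicate number as a block gave the reported call for 144 of 144 values and counts of 4, 2, 4, 5 and 0 in EPI, 1, 1, 1, 2 and 0 in MES, 6, 0, 1 and 0 for EPI against MES and 0 for Dlx5-null against WT.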
